A study of Mus musculus with 30 samples.

Results

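The response of the mouse hindbrain to a fever dose of lipopolysaccharide (LPS, a component of the outer wall of Gram-negative bacteria) was read on 15 bead arrays of total RNA, 7 labelled LPS and 8 labelled PBS, of 30 arrays in the series. The arrays were chosen by their labels alone, as all Pre-IP and Unbound RNA of both mouse lines. All mice carried a bacTRAP transgene, which puts an EGFP tag on the ribosomal protein Rpl10a in the cells that use the driver gene: Slc6a2 (the noradrenaline transporter) in the line JD1538Jdd/J and Slc6a4 (the serotonin transporter) in the line JD60Jdd/J, both on a B6;FVB background. The total RNA was taken from the hindbrain lysate before (Pre-IP) or after (Unbound) the tagged ribosomes were captured. Pre-IP RNA thus holds the RNA of all its cell types, and Unbound RNA what was left after the capture. The mice were adults of 6 to 12 weeks, kept at 30 °C, and received 100 ug/kg LPS or vehicle (sterile PBS) into the peritoneum. They were killed 6.5 to 7 h later. Per the protocol the fever then averaged 2.175 °C (SD 1.18), over mice that it does not specify.

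The Slc6a2 line had 3 LPS and 4 PBS arrays, and the Slc6a4 line had 4 of each. Females gave 4 arrays of each treatment, and males gave 3 LPS and 4 PBS arrays. Every Pre-IP array was amplified in batch 1 (3 LPS, 4 PBS) and every Unbound array in batch 2 (4 LPS, 4 PBS), so the batch and the moment of sampling cannot be told apart. Between 20395 and 23122 probes were detected per array, and the treatments overlapped in this number (LPS from 20990 to 22652, PBS from 20395 to 23122). In whole tissue, a fall in a transcript from fewer cells of a type and one from less RNA per cell cannot be told apart.

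As background, LPS is bound by Toll-like receptor 4 and its partners on immune cells and on cells of the vessel wall, which switch on inflammatory transcription factors and release cytokines. Cells of brain vessels answer these cytokines by making prostaglandin, which reaches neurons that set body temperature. The hindbrain holds noradrenergic and serotonergic nuclei and the relay for signals from the vagus nerve, beside glia, vessels and the cerebellum where it is dissected along.

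The deposited table lists probes by ID alone. None of the 45281 IDs (0) occurred in the reference gene table, so no gene, marker list or probe sequence is reported, and the labelled tissue was not checked against markers. The response is described by its size, its levels and its course over the arrays. Named by ID are the 2 largest rises and the 2 largest falls. These are among the probes called with all 15 arrays at a limma adjusted p under 0.05.

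The treatment labels of 2 arrays were in doubt because of their values. The main counts of calls and the differences of the named probes are given with and without them. Intervals for how a named probe differed between lines, sexes or batches are given only with all 15 arrays. Of the 2 arrays in doubt, 1 is labelled LPS and comes from a Slc6a4 female of batch 1. The other is labelled PBS and comes from a Slc6a2 male of batch 2. To measure the doubt, LPS against PBS was fitted without both of them and without the array to be placed, and that array was then set on a scale over the probes called in that fit. On this scale 0 is the PBS mean and 1 the LPS mean of the fitted arrays, after line and batch were allowed for. The scales used between 182 and 298 probes.

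The array labelled LPS from the Slc6a4 female of batch 1 lay at 0.0841, and 28 of its 291 probes were nearer the LPS mean. The array labelled PBS from the Slc6a2 male of batch 2 lay at 0.654, with 191 of 291 probes nearer the LPS mean. The other 6 LPS arrays lay from 0.709 to 1.05 (median 0.924), and the other 7 PBS arrays from -0.0519 to 0.192 (median 0.0733). So the array labelled LPS fell within the range of the PBS arrays, while the array labelled PBS lay between both ranges, closer to the LPS arrays. The array labelled PBS also had the fewest probes detected of all 15, 20395, and the part of this in its position was not tested.

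The study's other arrays hold TRAP RNA, which was captured with the tagged ribosomes. The TRAP array of the same line, sex, treatment and batch was taken to be from the same mouse. It was placed against the other TRAP arrays of its line, on probes from the same total RNA fit. For both arrays in doubt the TRAP placement used 249 probes, where the total RNA placement used 291. For the array labelled LPS the TRAP array lay at 0.191. The 3 other Slc6a4 TRAP arrays labelled LPS lay from 0.920 to 1.27, and the 3 labelled PBS from 0.167 to 0.429. For the array labelled PBS the TRAP array lay at 0.220. The 3 other Slc6a2 TRAP arrays labelled PBS lay from 0.115 to 0.340. The 3 labelled LPS that have a matching total RNA array lay from 0.815 to 0.963. The TRAP and total RNA of the Slc6a4 female thus both lay among PBS arrays. Those of the Slc6a2 male differed, with the TRAP array among PBS arrays and the total RNA array outside their range. Why these arrays lie there was not tested.

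**Figure D1:**
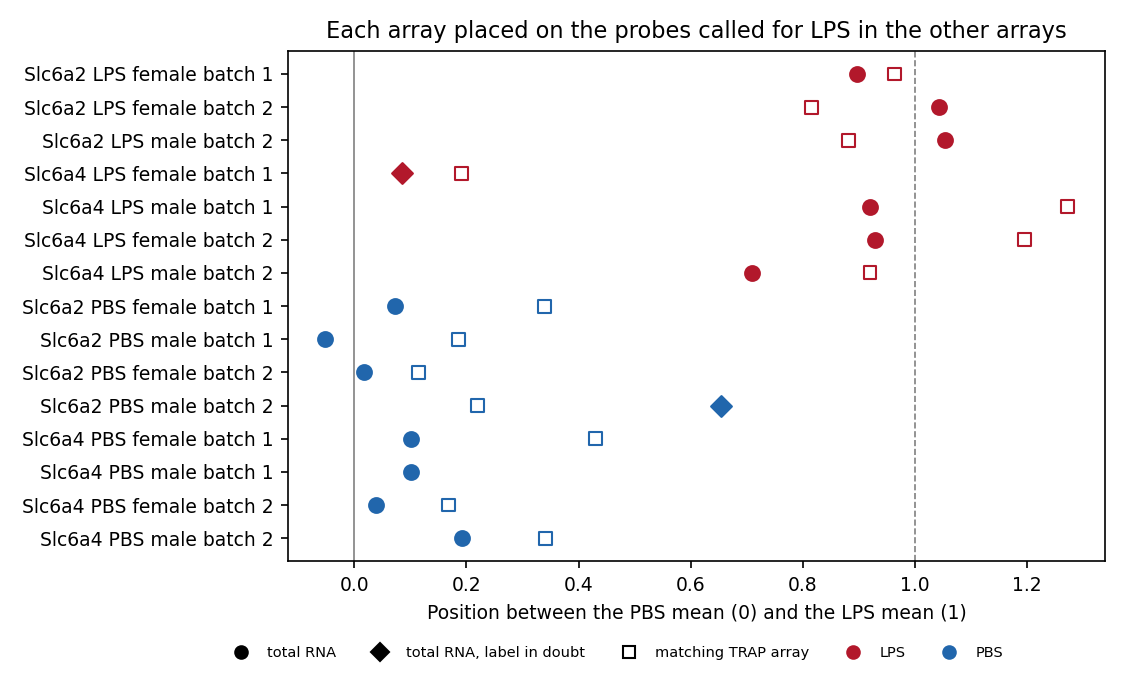
Position of each total RNA array (filled) and of the matching TRAP array (open squares) between the PBS mean (0) and the LPS mean (1), on the x axis, with 1 row per line, treatment, sex and batch; red is LPS, blue is PBS and diamonds are the 2 arrays with labels in doubt. The LPS diamond lies at 0.0841 with its TRAP array at 0.191, and the PBS diamond at 0.654 with its TRAP array at 0.220.

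LPS against PBS asks which transcripts of the whole hindbrain differ at the time of fever. With all 15 arrays, 66 of 24914 probes rose (0.265%) and 10 fell (0.0401%) at a limma adjusted p under 0.05, 76 in all (0.305%). The rises were from 0.47 to 3.10 log2 units, with a median of 1.5. The falls were smaller, from -1.46 to -0.42 with a median of -0.66, whereas the median over all probes tested was -2.3e-05. A rise of at least 2-fold was reached by 56 of the 66 probes, and one of at least 4-fold by 12. Of the 10 fallen probes, 2 fell at least 2-fold and 0 fell 4-fold. Before adjustment, 1856 probes (7.45%) had a p under 0.05.

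Without both arrays in doubt, 218 of 24574 probes rose (0.887%) and 73 fell (0.297%), 291 in all (1.18%). All 76 probes of the full set were among them, which is 26.1% of the 291. Each of these 76 had a larger difference than before, and their median size went from 1.43 to 1.72 log2 units. Leaving out only the array labelled LPS gave 160 risen and 22 fallen probes, and leaving out only the array labelled PBS gave 93 and 31. The 2 arrays were doubted for their values at probes that respond to LPS, so counts and p-values without them are favoured by that choice. Batch 1 then had 2 LPS and 4 PBS arrays, and batch 2 had 4 and 3.

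Of the 13 arrays not in doubt, 8 moved a count of calls by over 1.5 times when left out alone: all 6 LPS arrays and 2 PBS arrays. The smallest counts, 9 risen and 2 fallen probes, came without the LPS array of the Slc6a2 female of batch 1. Without the LPS array of the Slc6a4 male of batch 1 they were 17 and 2, and without those of the Slc6a2 and the Slc6a4 male of batch 2 they were 22 and 2 and 33 and 3. Without the LPS arrays of the Slc6a2 and the Slc6a4 female of batch 2 they were 37 and 7 and 28 and 3. Without the Slc6a4 PBS arrays of batch 2 they were 27 and 3 (female) and 34 and 4 (male). The other 5 PBS arrays left from 44 to 58 risen and from 8 to 12 fallen probes.

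**Figure D2:**
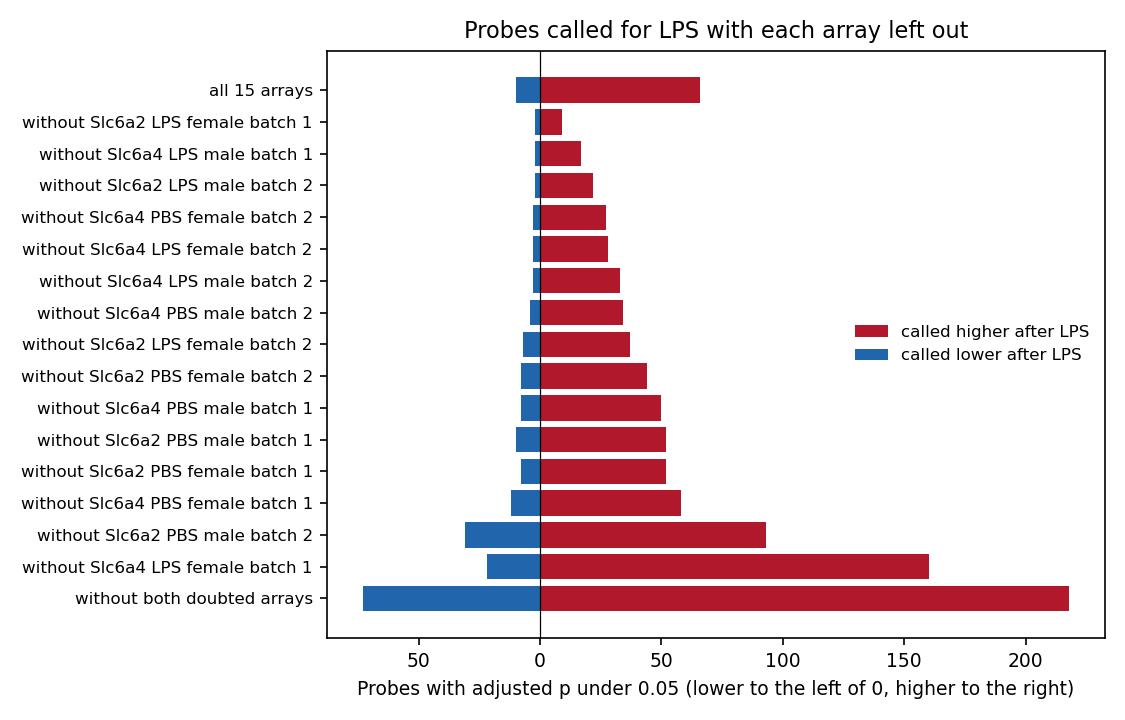
Probes called higher (red, to the right) and lower (blue, to the left) after LPS at a limma adjusted p under 0.05, with all 15 arrays, with each array left out in turn and without both arrays in doubt. The counts run from 9 higher and 2 lower without the LPS array of the Slc6a2 female of batch 1 to 160 and 22 without the array labelled LPS of the Slc6a4 female of batch 1, and to 218 and 73 without both arrays in doubt.

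ILMN_2763245 had the largest rise. On the log2 scale of normalized intensity its LPS arrays had a lowest value of 5.95, a median of 8.93 and a highest of 10.45. Its PBS arrays had a lowest value of 4.49, a median of 5.70 and a highest of 7.07. The groups overlapped, and both extremes that made them overlap were the arrays in doubt: 5.95 is the array labelled LPS and 7.07 the array labelled PBS. The other LPS arrays began at 6.76 and the other PBS arrays ended at 6.20. The probe was detected on 7 of 7 LPS and 5 of 8 PBS arrays. It rose by 3.10 log2 units (SE 0.49, limma adjusted p = 0.011), or 8.55-fold, at 8.5 ± 1.68 (SD, n = 7) against 5.55 ± 0.94 (SD, n = 8). Without background correction the rise was smaller, 2.06 log2 units (limma adjusted p = 0.018). Without both arrays in doubt the difference was 3.83 log2 units (SE 0.36, limma adjusted p = 1.3e-05), or 14.2-fold.

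ILMN_2772632 rose by 2.59 log2 units (SE 0.47, limma adjusted p = 0.021). Its LPS arrays had a lowest value of 5.02, a median of 8.80 and a highest of 9.39, and its PBS arrays 4.76, 5.31 and 7.06. Again the array labelled LPS in doubt was the lowest of its group and the array labelled PBS in doubt the highest of its own. Between the other arrays there was a gap, from 5.79 in PBS to 7.08 in LPS. The probe was detected on 6 of 7 LPS arrays, all but the one in doubt, and on 2 of 8 PBS arrays, among them the one in doubt. Its PBS level thus lies near background, where the size of a difference depends on the background correction. Without that correction the rise was 1.62 log2 units (limma adjusted p = 0.024). Without both arrays in doubt, and with the correction, it was 3.35 (SE 0.29, limma adjusted p = 5.6e-06).

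ILMN_2771753 had the largest called fall with all 15 arrays, -1.46 log2 units (SE 0.27, limma adjusted p = 0.022). Its PBS arrays had a lowest value of 5.36, a median of 6.87 and a highest of 7.42, and its LPS arrays 4.65, 5.0 and 6.17. Here the order of the arrays in doubt was turned round: the array labelled PBS was the lowest of its group and the array labelled LPS the highest of its own. The probe was detected on 7 of 8 PBS arrays and 1 of 7 LPS arrays, the one in doubt, so its LPS level lies near background. Without background correction the difference was -0.69 (limma adjusted p = 0.026). Without both arrays in doubt, and with the correction, it was -1.81 (SE 0.24, limma adjusted p = 0.00036). Over all probes tested, the lowest difference with all 15 arrays was -1.52, in a probe that was not called. Without both arrays in doubt the lowest was -2.09, in a called probe other than ILMN_2771753.

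ILMN_2824889 was a bright probe, detected on all 15 arrays, and had the next largest called fall, -1.04 log2 units (SE 0.19, limma adjusted p = 0.022). Its PBS arrays had a lowest value of 10.33, a median of 11.20 and a highest of 11.60, and its LPS arrays 9.62, 10.06 and 11.22. Among the other 13 arrays, PBS stood at 11.26 ± 0.27 (SD, n = 7) and LPS at 9.95 ± 0.29 (SD, n = 6). These groups were apart by more than their spread, with a difference of -1.36 (SE 0.11, limma adjusted p = 4.4e-06).

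The call of ILMN_2763245 was lost without 1 of the 15 arrays, the LPS array of the Slc6a2 female of batch 1 (limma adjusted p = 0.061). ILMN_2772632 missed it without any 1 of 7 arrays: the Slc6a2 LPS arrays of both females and the male, the Slc6a4 LPS arrays of the female of batch 2 and the male of batch 1, and both Slc6a4 PBS arrays of batch 2 (limma adjusted p from 0.050 to 0.095). ILMN_2771753 missed it without any 1 of 8 arrays (limma adjusted p from 0.053 to 0.084), which were the same as for ILMN_2772632 but for the Slc6a2 female of batch 2, where the PBS array took the place of the LPS array, and with the Slc6a4 LPS male of batch 2. ILMN_2824889 missed it without any 1 of 8 arrays (limma adjusted p from 0.052 to 0.095): both Slc6a2 females labelled LPS, the Slc6a2 PBS female of batch 2, the Slc6a4 LPS arrays other than the one in doubt, and both Slc6a4 PBS arrays of batch 2. The choice of fit also ended calls. Without a trend in eBayes all 4 probes missed the threshold (limma adjusted p from 0.067 to 0.10). With no filter on dim probes (0.059 to 0.076) and with 1 mean per line, sex and treatment (0.054 to 0.076), all but ILMN_2763245 missed it in limma. With the letter of the sample title as a term, ILMN_2772632 (limma adjusted p = 0.087) and ILMN_2771753 (0.099) missed it. In all these fits the differences kept their sign.

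**Figure D3:**
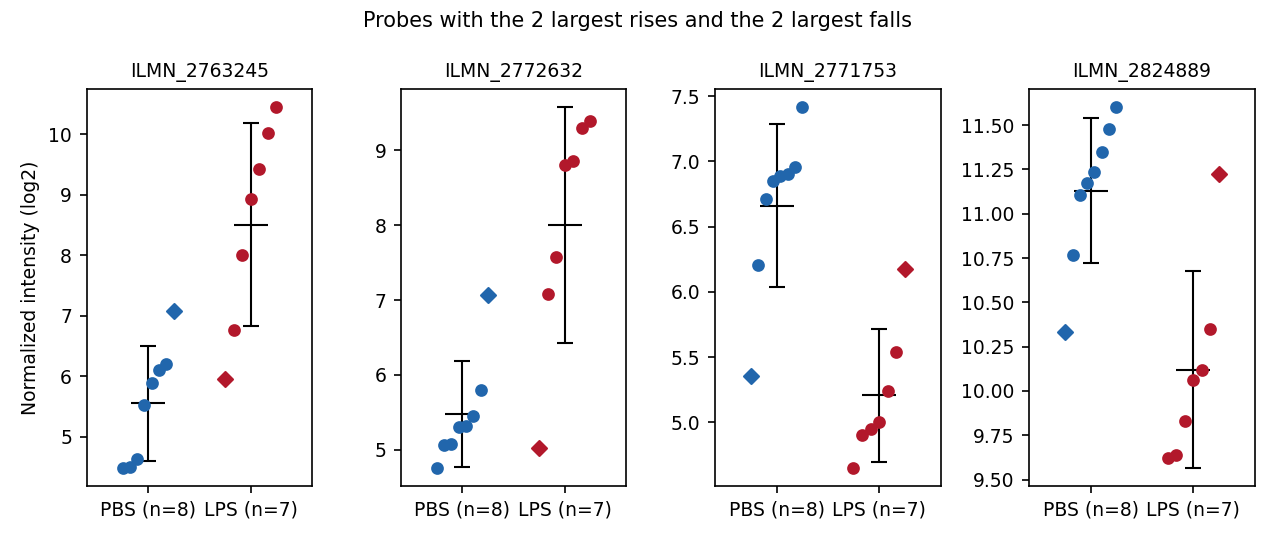
Normalized intensity (log2, y axis) of the 4 named probes in each PBS array (blue, n = 8) and LPS array (red, n = 7), with the mean and SD as bars and the 2 arrays in doubt as diamonds; the y axes differ between panels and do not start at 0. In all 4 panels the LPS diamond lies among or next to the PBS points, and the PBS diamond lies nearest to or among the LPS points.

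With all 15 arrays, probes that rose were spread over the whole range of levels, while the 10 fallen probes were mostly bright. Signal near background limits how far a dim probe can fall, and the part of this was not tested. Split by mean level into 3 classes of equal size, 21, 21 and 24 risen probes lay in the dimmest, middle and brightest class, and 1, 1 and 8 fallen probes. In PBS arrays the risen probes had a median level of 7.02 and the fallen ones 10.61, against 7.71 for all probes tested. Of the 66 risen probes 37 were detected on all 15 arrays, as were 9 of the 10 fallen probes and 16424 of all 24914 probes tested. At most 1 of 8 PBS arrays detected 13 of the risen probes, 0 of the fallen probes and 638 of all probes tested. A probe that was dim in PBS could enter the test only through LPS arrays, so the 13 are a description and no support for a switch from off to on.

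With both arrays in doubt left out, the same split gave 60, 76 and 82 risen and 11, 25 and 37 fallen probes. A difference of at least 2-fold was reached by 145 risen and 23 fallen probes, and by 285 of all probes tested (1.16%). One of at least 8-fold was reached by 5 risen and 0 fallen probes, and by 5 of all probes tested (0.0203%). Of the 218 risen probes, 21 were detected on 0 of 7 PBS arrays, as were 116 of all 24574 probes tested (0.472%). Detected on all 6 LPS and 0 of 7 PBS arrays were 6 risen probes and 6 of all probes tested (0.0244%). A probe detected on 0 PBS arrays could enter the test only through LPS arrays. The 21 are thus a description and no support for a switch from off to on. Over the probes called without both arrays in doubt, the median fall was -0.80 log2 units and the median rise 1.21.

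**Figure D4:**
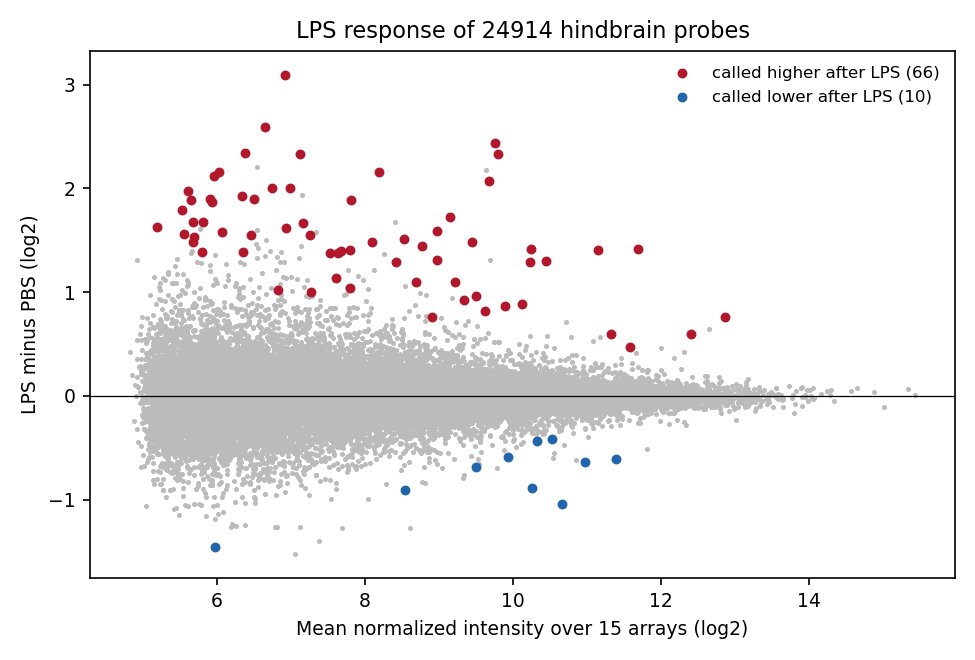
LPS minus PBS (log2, y axis) against the mean normalized intensity over 15 arrays (log2, x axis) for 24914 probes; red marks the 66 probes called higher after LPS, blue the 10 called lower and grey the rest. Red points run over the whole range of levels and reach 3.10, while 8 of the 10 blue points lie in the brightest of 3 equal classes of probes.

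Groups that do not overlap were rare with all 15 arrays. The lowest LPS array was above the highest PBS array for 10 of all 24914 probes tested (0.0401%), of which 3 were among the 66 risen probes. The reverse held for 4 of all probes tested (0.0161%), of which 3 were among the 10 fallen probes. Without both arrays in doubt, 154 of the 218 risen and 36 of the 73 fallen probes had groups that did not overlap. Of all probes, 0.952% had such groups in either direction. The risen and fallen probes were called on these same values. The arrays left out had been doubted for their values at probes that respond to LPS. Both choices favour groups that do not overlap, so the contrast with all probes is a description and no separate evidence of a response.

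Whether the response differed between the lines, the sexes or the batches was tested by the interaction with LPS. No probe (0 of 24914, or 0%) passed in limma for line, with 1288 at an unadjusted p under 0.05 (5.17%), for sex, with 890 (3.57%), or for batch, with 976 (3.92%). The smallest adjusted p was 0.84 for line and 1.00 for sex and batch. The calls were also 0 when both arrays in doubt were left out, for line (1301 at an unadjusted p under 0.05), sex (980) and batch (954). With all 15 arrays, the response of ILMN_2763245 in the Slc6a4 line minus that in the Slc6a2 line was -1.63 log2 units (95% interval -3.61 to 0.35). Male minus female was -0.65 (95% interval -2.80 to 1.5). These intervals include differences of several fold, so the tests do not show that the strata responded alike.

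For ILMN_2824889 the intervals were tighter, from -0.91 to 0.76 log2 units for line, from -1.0 to 0.71 for sex and from -0.98 to 0.68 for batch. By line its difference after LPS was -1.0 (Slc6a2) and -1.07 (Slc6a4), and it was -0.98 in females and -1.09 in males. In batch 1 and batch 2 it was -0.96 and -1.11. For ILMN_2763245 the differences were 3.93 and 2.35 by line, 3.43 and 2.81 in females and males, and 2.72 and 3.36 by batch. For ILMN_2772632 they were 3.19 and 2.10 by line, 2.47 and 2.86 in females and males, and 2.76 and 2.45 by batch. ILMN_2771753 was lower after LPS in each of these strata, from -1.12 in the Slc6a2 line to -1.72 in the Slc6a4 line. These values and intervals are from all 15 arrays. Without both arrays in doubt, the differences of ILMN_2763245 were 4.59 and 3.15 by line, 4.33 and 3.33 by sex, and 3.79 and 3.79 by batch. Those of ILMN_2772632 were 3.79 and 2.97, 3.30 and 3.40, and 4.01 and 2.79. Over the same strata ILMN_2771753 ran from -1.45 to -2.10 and ILMN_2824889 from -1.27 to -1.43.

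Each batch and each line alone called few probes. Batch 1 called 0 of 24914 (1444 at an unadjusted p under 0.05), batch 2 called 1 (0.00401%), the Slc6a2 line 1 (0.00401%) and the Slc6a4 line 0 (1740 at an unadjusted p under 0.05) with limma. The batches share no arrays, and neither do the lines, so probes picked in one were read in the other, by a rule set after these counts were seen. Of the 100 probes with the smallest p among those higher after LPS in batch 1, 91 were also higher in batch 2, where 50.3% of all probes were. Their median difference was 1.17 log2 units in batch 1 and 0.97 in batch 2. Picked in batch 2 and read in batch 1, where 50.1% of all probes were higher, 92 of 100 were higher, with medians of 1.52 and 0.68. Between the lines 95 of 100 (from Slc6a2 to Slc6a4) and 83 of 100 (the reverse) were higher in both. Of all probes, 48.7% were higher in the Slc6a4 line and 51.6% in the Slc6a2 line. Of the 100 probes picked as lower, 69 and 74 were lower in the other batch, where 49.7% and 49.9% of all probes were. Between the lines it was 66 of 100 either way, against 51.3% and 48.4% of all probes. Picked and read without both arrays in doubt, 98 and 96 of 100 higher probes kept their sign between the batches, against 48.1% and 50% of all probes. Of 100 lower probes 86 and 81 kept it, against 51.9% and 50%. Between the lines 99 of 100 higher probes kept it either way, against 48.1% and 49% of all probes. For lower probes it was 75 and 80 of 100, against 51.9% and 51%. The 2 arrays were doubted for their values at probes that respond to LPS, so leaving them out favours such likeness. The difference between higher and lower probes was not tested.

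With both arrays in doubt left out, each batch and line called more probes from fewer arrays. Batch 1 called 97 risen (0.395%) and 19 fallen probes (0.0773%). Of these, 95 and 18 had the same sign in batch 2, where 48.1% of all probes were higher and 51.9% lower. Batch 2 called 60 risen (0.244%) and 9 fallen (0.0366%), and 34 and 6 of these were called in both batches. The Slc6a2 line called 73 risen probes (0.297%), all 73 higher in the Slc6a4 line too, and 8 fallen ones (0.0326%), all 8 lower there too. In the Slc6a4 line 48.1% of all probes were higher and 51.9% lower. The Slc6a4 line called 55 risen probes (0.224%), 54 of them higher in the Slc6a2 line, and 9 fallen ones (0.0366%), all 9 lower there. In the Slc6a2 line 49% of all probes were higher and 51% lower. Of the risen probes, 33 were called in both lines, which is 45.2% of the Slc6a2 list and 60.0% of the Slc6a4 list.

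By sex, with no array left out, females alone called 0 of 24914 probes higher and 0 lower, and males alone also called 0 and 0. Without both arrays in doubt, the 3 LPS and 4 PBS arrays of females called 51 risen (0.208%) and 6 fallen probes (0.0244%). The 3 LPS and 3 PBS arrays of males called 39 (0.159%) and 3 (0.0122%). All 51 risen and all 39 were higher in the other sex too, and 24 were called in both sexes. Of all probes, 49.8% were higher in males and 47.2% in females. The median rise of the female list was 2.29 log2 units in females and 1.87 in males, and that of the male list 1.97 in males and 1.75 in females. In every such pair, by batch, line or sex, the median rise was larger in the arrays that chose the probes. All these arrays were normalized together, and the choice of the arrays left out favours likeness between them.

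**Figure D5:**
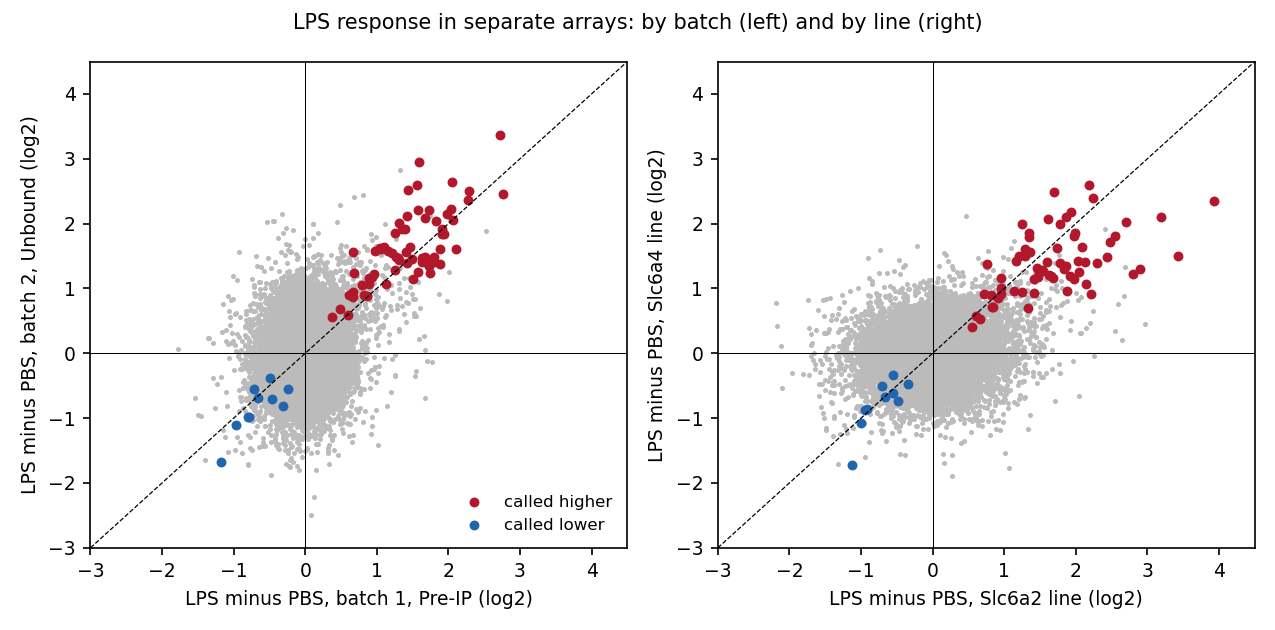
LPS minus PBS (log2) of each probe in batch 1 (x axis) against batch 2 (y axis) on the left, and in the Slc6a2 line (x axis) against the Slc6a4 line (y axis) on the right, over all 15 arrays; red and blue mark the 66 and 10 probes called higher and lower in the joint fit, grey the rest, and the dashed line is equality. The red and blue points have the same sign on both axes, as a joint call favours, and the probe farthest to the right on the right panel, ILMN_2763245, lies at 3.93 and 2.35.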

How the data were processed

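The authors deposited 1 table of probe intensity values from Illumina bead arrays with a detection p-value per probe and array. By its values, the deposited intensity had undergone no normalization across arrays and no subtraction of background, and the submitters' processing notes name lumi, with no version or role. Scanner software is not given in the sources used here. Intensities of the 15 total RNA arrays were background-corrected by normexp with the detection p-value (offset 16), quantile normalized and put on the log2 scale (limma 3.58.1, R 4.3.3). Probes with a detection p under 0.01 on at least 3 arrays were kept, which left 24914 of 45281. The fit (lmFit and eBayes with a trend, 11 residual degrees of freedom) had terms for treatment, line and batch, Benjamini-Hochberg adjustment over all probes kept and a threshold of 0.05. Each interaction was added to this fit, with sex as a further term for sex. Where arrays were left out, the others were normalized and filtered anew, except for the positions of total RNA arrays between PBS and LPS. For these positions all 15 arrays were normalized together, and only the filter was renewed. Fits within a batch, line or sex used the joint values. The batch number marks shared handling and was in every fit that spans both batches unless stated. Named probes are the 2 largest called rises and falls with the same sign in both batches. The fits were checked on simulated data. The 15 arrays follow from the labels, but the decision to describe them, the 2 arrays in doubt, the rule for named probes and 31 gene lists were chosen with earlier results of these data known, and the lists could not be looked up. The labels do not tie arrays to named mice, so p-values measure the spread between arrays. The number of arrays limits the precision. Alternatives covered the background, scaling, filter, covariates, spread and arrays.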

Additional observations from a re-analysis of the deposited data

Results flagged for a closer look

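In 14 groups examined (7 LPS or 8 PBS arrays, for the position on the LPS scale fitted with and without both arrays in doubt, the probes detected and the 4 named probes), 3 had an array far from the others, by a test that chance passes in about 1 of 20 groups. On the scale fitted without both arrays in doubt, the array labelled LPS of the Slc6a4 female of batch 1 stood at 0.0841 among the LPS arrays, and the array labelled PBS of the Slc6a2 male of batch 2 at 0.654 among the PBS arrays. For ILMN_2772632 the same PBS array stood apart at 7.06. All 3 are the arrays whose labels were in doubt, which were chosen for such values, so these results are no separate evidence.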

How the results depend on the processing

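The counts with all 15 arrays (66 higher, 10 lower) stayed within 1.5 times without background correction, with quantile normalization over all 30 arrays, with median centring, with the stricter filter and with sex as a term. They were 23 and 3 with no filter on dim probes, and 19 and 1 with 1 mean per line, sex and treatment. With the letter of the sample title as a term they were 17 and 2. The labels do not say what this letter marks. Letter D held only Slc6a2 and letter E only Slc6a4 arrays, so the letter largely overlaps with the line. With eBayes without a trend the counts were 10 and 0 (1826 probes at an unadjusted p under 0.05). Array weights gave 222 and 65, and leaving out both arrays in doubt 218 and 73. With no replicate block, that is without the batch term, they were 48 and 6. Within batch 2 and within the Slc6a2 line they were 1 and 0, and within batch 1, the Slc6a4 line, title letter D and title letter E 0 and 0 (1039 to 1740 probes at an unadjusted p under 0.05, limma). Leaving out 1 array gave from 9 to 160 higher and from 2 to 31 lower probes. Added after seeing the data, and without both arrays in doubt, array weights gave 343 and 133, the title letter as a term 174 and 40, and batch 1 alone 97 and 19. The cause of these changes was not tested. The interactions gave 0 probes in every alternative run. The named probes were chosen for the same sign in both batches, and the alternatives share arrays with the main fit. No named probe changed its sign, which that choice favours. Over its alternatives the limma adjusted p ran from 1.9e-07 to 0.75 for ILMN_2763245 (31 of 39 past the threshold), from 1.3e-07 to 0.76 for ILMN_2772632 (21 of 38), from 2.4e-05 to 1.00 for ILMN_2771753 (18 of 38) and from 1.4e-07 to 0.71 for ILMN_2824889 (22 of 39). These tallies include the fits added after seeing the data, all without both arrays in doubt, a choice that favours low p-values. The lowest value of each probe came from 1 of these, with array weights. Signal near background limits the size of changes in dim probes.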
